A study of Brassica napus with 18 samples.

Results

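The rapeseed accession R4210 was compared with R4168 and R4817, the other two accessions that carry haplotype 2 of BnaC3.LFY, in RNA from shoot apices of field-grown plants. LEAFY (LFY) encodes a transcription factor that gives young meristems a floral fate, and BnaC3.LFY is its copy on chromosome C03. R4168 and R4817 are called sisters here because the labels give them the same haplotype as R4210, and the labels give no pedigree. All gene models that passed a filter on low counts were taken, which left 53356 of the 107233 gene models in the table, and 9 of the 18 libraries entered the fit. The difference is that between R4210 and the mean of the R4168 and R4817 coefficients. The other 9 libraries come from R5044, R5159 and R5161, which carry haplotype 1 and are used here only to say on which side of a difference they lie.

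Brassica napus is an allotetraploid that holds an A subgenome, from Brassica rapa, and a C subgenome, from Brassica oleracea. Most genes therefore have a copy on an A chromosome and a similar, homoeologous copy on a C chromosome. Homoeologous chromosomes can pair at meiosis, and stretches in which one copy is lost or replaced by the other are well known among accessions of this species. Chromosomes A05 and C05, the first parts of A09 and C09, and A10 and the last part of C09 are homoeologous. The identifiers give a chromosome and a running gene number, so places are given as gene numbers and not as base pairs. Of the tested models, 52851 lie on the 19 chromosomes and 505 on scaffolds. No symbol could be attached to an identifier (0 matches in a name table of 123214 entries), so LFY, flowering genes and markers of shoot tissue were not analysed here, and roles of single genes are not given.

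Each accession had 3 libraries, of 23318589 to 30300066 counts in R4210, 24756121 to 32241484 in R4168 and 21960992 to 23821458 in R4817, and 48763 to 50854 models reached 10 counts. Nothing in the labels tells if those 3 came from different plants, so p-values measure just the spread among these libraries, which may be technical. The 3 accessions separated on the first principal components, of 41.7% and 34.2% of the variance of log2 CPM (a gene's count scaled to a common library total). The next component (9.88%) separated 2 libraries of R4817, replicate 1 at 161.4 and replicate 2 at -163.2, with replicate 3 at 22.7 between them. Of 1960 genes that differed at least 4-fold between replicates 1 and 2 of R4817, 96.6% had their level in replicate 3 between 20% and 80% of the way from one to the other, with a median of 53.1%. In R4210 the same held for 88.9% of 387 genes (median 42.4%), and in R4168 for 22.1% of 271 genes (median 92.0%). The third libraries of R4210 and R4817 thus lay between the other 2 libraries of their accession, and why was not tested. Replicate 3 lay between the others in the haplotype 1 accessions too, for 91.7% of 337 genes in R5044, 89.2% of 595 in R5161 and 66.2% of 373 in R5159. If replicate 3 is not independent of the other 2, SDs over n = 3 and p-values are too small, and this applies to every value of those accessions below. Total counts of calls, and counts of genes apart from both sisters by segment, are therefore also given without the third libraries of R4210 and R4817 where that moves them by over 1.5 times; counts by segment of genes apart from all 5 were not recomputed. The biological coefficient of variation, the spread between libraries beyond counting error, was 0.246 in R4210, 0.257 in R4168 and 0.382 in R4817.

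R4210 apices differed from the mean of their sisters in 11165 of the 53356 tested genes, in near equal numbers of each direction. By edgeR's quasi-likelihood test at a Benjamini-Hochberg adjusted p under 0.05, 20.9% of tested genes were called, 5738 higher (10.8%) and 5427 lower (10.2%). These are bulk samples, in which fewer cells of a type and less RNA per cell cannot be told apart. Of the 11165 calls, 3946 (35.3%) also passed against each sister in the same direction, and 329 (2.95%) passed against neither alone. A further 4403 (39.4%) passed against R4168 and not against R4817, and 2487 (22.3%) passed against R4817 and not against R4168. Whether the sisters differed from each other was not tested for these genes. Against the sister for which they missed the threshold, 86.6% of the 4403 and 80.1% of the 2487 had the same sign. These genes had to pass against the mean of both sisters, and both pairwise contrasts share the R4210 libraries. A like sign was thus favoured by the choice of genes, and these shares are no evidence that R4210 also differs from that sister. The 3946 genes that passed against each, 7.4% of the tested genes, are called apart from both sisters. They leaned to the low side, with 1364 higher (2.56%) and 2582 lower (4.84%) in R4210.

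Each of the 3 haplotype 2 accessions differed from the other two in a like number of genes. R4210 against R4168 gave 11805 calls (22.1%), 5778 higher (10.8%) and 6027 lower (11.3%). R4210 against R4817 gave 8897 (16.7%), 3750 higher (7.03%) and 5147 lower (9.65%). Set against the mean of the other two in the same fit, R4168 gave 13112 calls (24.6%), 6951 higher (13.0%) and 6161 lower (11.5%). R4817 gave 10189 (19.1%), 6414 higher (12.0%) and 3775 lower (7.08%). These 3 contrasts share all 9 libraries, so their counts are not independent. The order of R4168 and R4210 turned when any R4168 library was left out, for example to 10352 calls for R4210 and 10153 for R4168 without replicate 1. Without the third libraries of R4210 and R4817 the counts were 4725 for R4210 (2598 higher, 2127 lower), 7311 for R4168 and 5137 for R4817. Of the 4725 genes, 4672 were also among the 11165. The genes apart from both sisters then numbered 1696, of which 414 were higher and 1282 lower, and 1678 of them were among the 3946. A fit with fewer libraries also has fewer degrees of freedom, and the part of that in the lower counts was not tested. Leaving out only the third library of R4210 gave 7014 calls against the sister mean and 2612 apart from both.

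In a wider fit of all 18 libraries with 58143 genes tested, R4210 differed in the same direction from each of the other 5 accessions in 2521 genes (4.34%), 711 higher (1.22%) and 1810 lower (3.11%). Of the 3946 genes apart from both sisters, 2041 (51.7%) were apart from all 5. Without the third libraries of R4210 and R4817 the 2521 became 1498, and without those of the haplotype 1 accessions as well they became 1275 (265 higher, 1010 lower).

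Part of the difference was regional. Along each chromosome, the median log2 difference was taken in consecutive windows that span 100 gene numbers and hold 15 or more tested genes, centred on the median of all chromosome genes (0.00581). A window whose median was at least 0.5 in size is called shifted. Of 965 windows, 54 were shifted, 23 higher and 31 lower in R4210, and adjoining windows joined into 24 segments. In 38 windows (15 higher, 23 lower, 16 segments) the shift held against each sister, and in 16 it missed 0.5 against at least 1 of them. The A10 window 2901 to 3000 missed it against both, with medians of -0.28 against R4168 and -0.19 against R4817. Because windows were chosen on this contrast, their values are a description and carry no test.

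**Figure D1:**
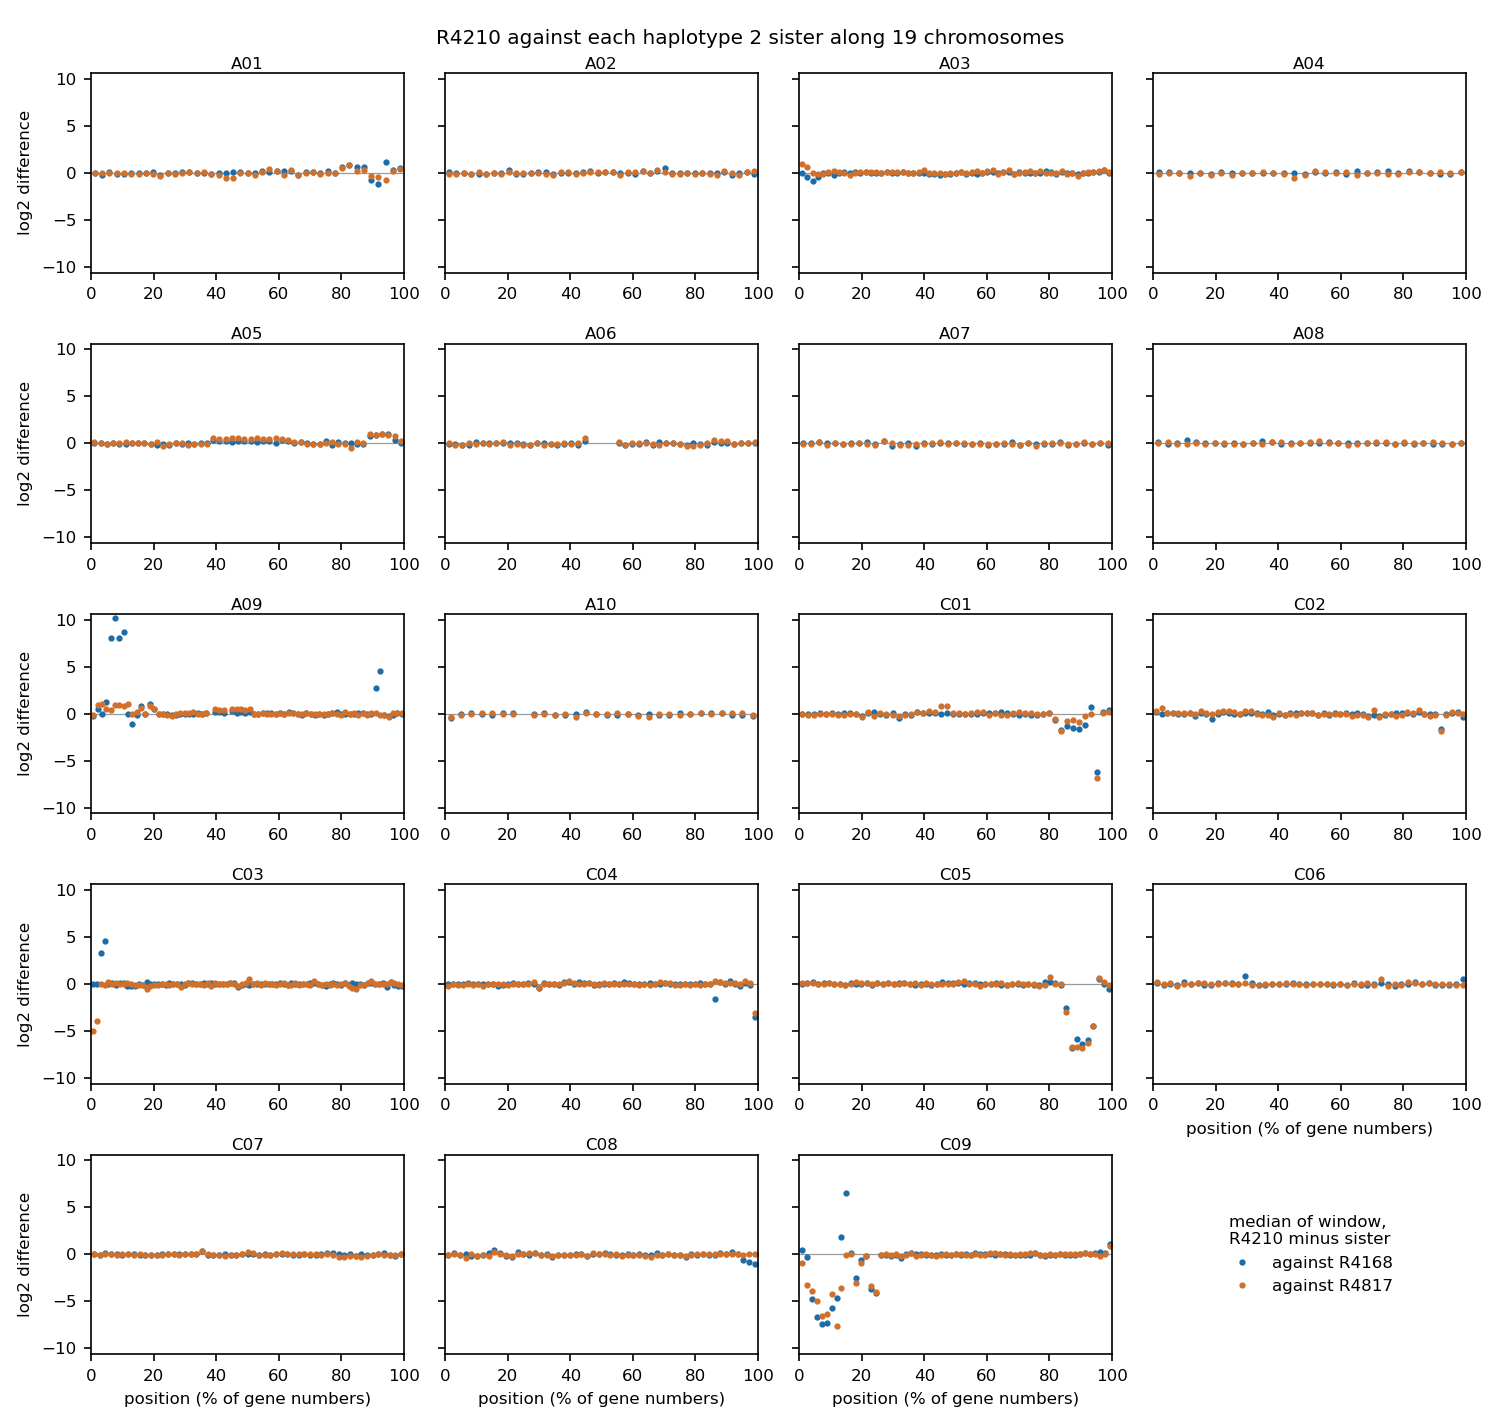
Median log2 difference of R4210 from R4168 (blue) and from R4817 (orange) in windows of 100 gene numbers along the 19 chromosomes; the x axis is the position in percent of a chromosome's gene numbers, and each point is a window. Most windows lie near 0, the windows on C05 near 90% and in the first part of C09 reach below -5 against both sisters, and several windows on A09 and C03 stand apart from 1 sister only.

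Shifted windows held 5.88% of the tested chromosome genes (3108 of 52851). They held 18.2% of the chromosome genes called against the sister mean (2023 of 11130) and 30.2% of the genes apart from both sisters (1187 of 3936 on chromosomes). They held 32.8% of the lower genes (845) and 25.1% of the higher ones (342). Within them 38.2% of tested genes were apart from both sisters, and outside them 5.53%. The 2 directions differed in size inside these windows. The lower genes there had a median log2 difference of 6.53 in size, and 679 of 845 were at least 8-fold lower, while the higher genes had a median of 1.24, with 92 of 342 at least 8-fold higher. Windows were defined by this same difference, so these sizes follow in part from the choice.

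A long low stretch lay near the end of C05. In bins of 20 gene numbers it ran from gene number 4921 to 5440 of a chromosome whose last number is 5761. These bounds ran from the first to the last bin whose median was at least 1 log2 unit lower than each sister. The low stretches below on C09, C04, C02, A10 and C01 (4921 to 5000) were bounded likewise. Single bins within such bounds need not be low. On C05 the bin 4981 to 5000 (10 tested genes) had medians of 2.68 log2 above R4168 and 0.73 above R4817. On C09 the bin 1501 to 1520 had -1.04 against R4168 and -0.36 against R4817. Bounds were set after seeing the values, so counts and sums within them follow in part from that choice. Of the 557 models of the C05 stretch 309 were tested, and 281 of these were lower than in both sisters while 3 were higher. The summed level of the stretch was 779.2, 741.9 and 811.1 CPM in the 3 R4210 libraries. It was 6376, 5798 and 5813 CPM in R4168 and 6194, 6218 and 6210 CPM in R4817. All R4210 libraries lay far below all sister libraries, and the R4210 mean of 777.4 ± 34.6 CPM (SD, n = 3) was 0.127 of the sister mean. The median gene differed by -6.13 log2 from R4168 and by -6.44 from R4817. In R4210 134 of the 309 tested genes had at most 3 counts over its 3 libraries, and 79 reached a mean of 1 CPM, compared with 287 in the sisters. The haplotype 1 accessions lay on the sisters' side, R5044 having 9582 ± 161 CPM, R5159 7556 ± 134 and R5161 7378 ± 276. In whole windows (4901 to 5500), 286 of the 378 genes tested with all 18 libraries were lower in R4210 than in each of the other 5 accessions.

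A gene of this stretch gives the pattern at single-gene level. BnaC05T0526400ZS (C05, gene number 5264) had the most negative log2 difference among the 1388 lower genes that were apart from both sisters with at least 10 counts in each of the 9 libraries. Its level was 1.06, 1.11 and 0.918 CPM in R4210, from 25 to 32 counts a library. It was 125, 123 and 115 CPM in R4168 and 115, 112 and 113 CPM in R4817. The groups did not overlap, and R4210 was lower by a log2 difference of -6.82, about 113-fold, with an edgeR quasi-likelihood adjusted p of 1.34e-08. The haplotype 1 accessions had 308 ± 16.7 (R5044), 205 ± 7.53 (R5159) and 166 ± 12 CPM (R5161; SD, n = 3), all above the sisters.

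On A05, the homoeologue of C05, a stretch at the same end of the chromosome was raised. Gene numbers 4401 to 4800 (last number 5002) were shifted against both sisters, and 120 of 282 tested genes there were higher than in both while 4 were lower. Without the third libraries of R4210 and R4817, 65 of 281 were higher than in both. The stretch summed to 8047, 7723 and 8023 CPM in R4210. It summed to 5001, 4488 and 4420 CPM in R4168 and to 4543, 3795 and 4179 CPM in R4817. All R4210 libraries exceeded all sister libraries, and the ratio to the sister mean was 1.8. The difference was small and shared by most genes, with a median of 0.91 log2 (quartiles 0.54 and 1.18), and 63.1% of the tested genes had a log2 difference between 0.5 and 1.5. R4210 also exceeded the haplotype 1 accessions, which had 3231 ± 45.8 (R5044), 4792 ± 175 (R5159) and 4868 ± 143 CPM (R5161), and 89 genes were higher in R4210 than in each of the other 5 accessions.

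Added together, the C05 windows 4901 to 5500 and the A05 windows 4401 to 4900 differed far less between accessions than either alone. The sum was 11030 ± 192 CPM in R4210, 12330 ± 659 in R4168 and 11770 ± 615 in R4817 (SD, n = 3). For comparison, the C05 part alone was 988.1 ± 24.4, 6348 ± 335 and 6631 ± 137 CPM, and the A05 part alone was 10040 ± 194, 5978 ± 327 and 5138 ± 751 CPM. The sum was 13600 to 14090 CPM in the haplotype 1 accessions. Reads of A and C copies can be similar enough to be counted for either copy (how multi-mapping was handled is not given in the sources used here), so counts of such pairs are uncertain throughout. A gene that is missing, a gene that is silent and a gene whose reads fail to align cannot be told apart from these counts.

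**Figure D2:**
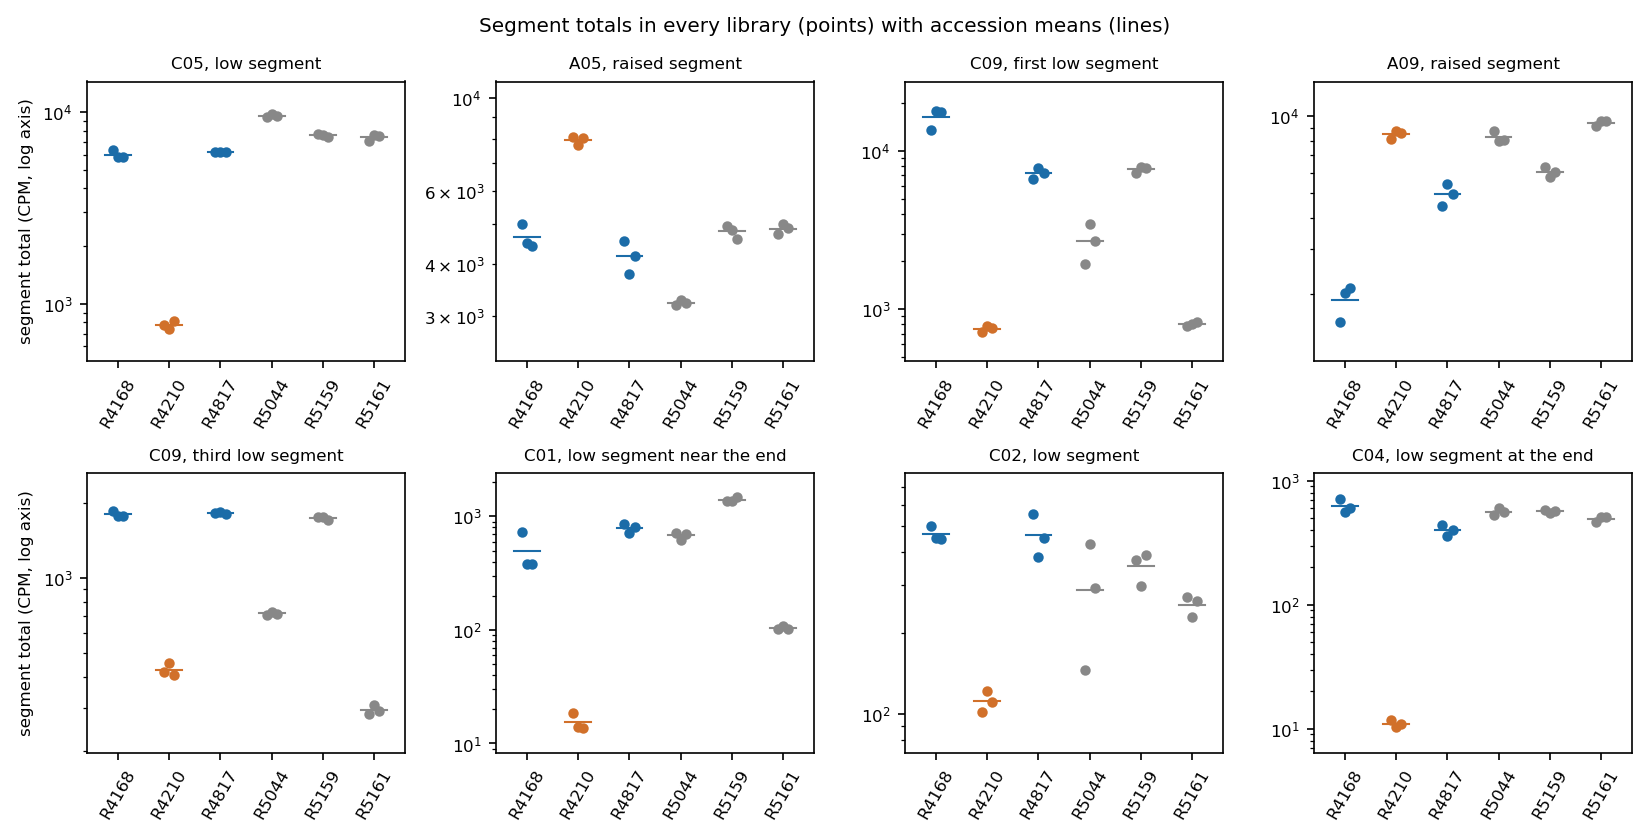
Summed level of 8 segments in CPM (log axis) in each of the 18 libraries, with points for libraries and lines for accession means; R4210 is orange, its sisters blue and the haplotype 1 accessions grey. The 3 R4210 libraries lie below all 6 sister libraries in the C05, C09, C01, C02 and C04 panels and above them in the A05 and A09 panels, and R5161 lies near or below R4210 in both C09 panels.

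The first part of C09 was the other large low region, and here the haplotype 1 accessions were divided. From gene number 181 to 780, 267 of 352 tested genes were lower than in both sisters. The summed level was 713.8, 784.7 and 760.4 CPM in R4210. It was 13600, 18010 and 17630 CPM in R4168 and 6625, 7810 and 7258 CPM in R4817. The groups did not overlap, and the sisters themselves differed, so that R4210 stood at 0.0459 of R4168 and at 0.104 of R4817. R5161 had 806.2 ± 24.4 CPM, close to R4210, R5159 had 7656 ± 335, close to R4817, and R5044 had 2696 ± 763 between them. In the windows 201 to 800, only 52 of 377 genes tested with all 18 libraries were lower in R4210 than in each of the other 5 accessions.

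BnaC09T0061600ZS (C09, gene number 616) lies in this region and had the highest sister level among the genes that were off in R4210. It had 0 counts in each of the 3 R4210 libraries. It had 140, 138 and 144 CPM in R4168 and 67.8, 98.8 and 91.9 CPM in R4817. Against 3 counts over the R4210 libraries, the limit that a count of 0 allows, it was at least 3150-fold lower in R4210, and its edgeR quasi-likelihood adjusted p was 2.43e-07. It also had 0 counts in each R5161 library, while R5044 had 16.9 ± 6.18 CPM and R5159 had 89.5 ± 17.3 (SD, n = 3). Such limits cover counting error only.

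Farther along C09 lay 2 more low stretches in which the haplotype 1 accessions were divided. From 1121 to 1260, 45 of 62 tested genes were lower than in both sisters (28 of 64 without the third libraries of R4210 and R4817), with 177.9 ± 8.28 CPM in R4210, 854.1 ± 41.3 in R4168 and 855.6 ± 119 in R4817. R5044 (208.7 ± 17.9) and R5161 (140.7 ± 3.14) lay near R4210, and R5159 (931.9 ± 21.6) lay near the sisters. From 1381 to 1560, 81 of 100 tested genes were lower than in both, with 427 ± 24.9 CPM in R4210, 1802 ± 43.3 in R4168 and 1827 ± 12.1 in R4817. There R5161 had 293 ± 13.4, R5044 719.3 ± 10.5 and R5159 1739 ± 30 CPM. Before these stretches, the window 901 to 1000 differed from 1 sister only, with 813.2 ± 27.7 CPM in R4210, 850 ± 103 in R4817 and 61.56 ± 3.4 in R4168.

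A stretch in the first part of A09 was raised, by very different amounts against the 2 sisters. Gene numbers 301 to 800 summed to 8143, 8763 and 8565 CPM in R4210, to 1556, 2022 and 2125 in R4168 and to 4438, 5429 and 4948 in R4817. The median gene was 8.08 log2 above R4168 and 0.75 above R4817. Of 315 tested genes 272 were called higher against the sister mean, and 87 were higher than in each sister, or 19 without the third libraries of R4210 and R4817. R5044 (8261 ± 399 CPM) and R5161 (9404 ± 263) lay at or above R4210, and R5159 (6039 ± 271) lay between R4210 and R4817. Further along, 2 shorter A09 stretches were raised to a like extent against both sisters. From 1101 to 1200 R4210 had 1392 ± 13.5 CPM, R4168 816.3 ± 57.3 and R4817 868.5 ± 31.1. There R5044 (1475 ± 14.3) and R5161 (1759 ± 63.8) lay above R4210, and R5159 (866 ± 16.7) lay near the sisters. From 1301 to 1500 R4210 had 3496 ± 60 CPM, R4168 1863 ± 34.1 and R4817 2118 ± 27.1, with median differences of 0.87 and 0.74 log2.

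The sum of the first parts of C09 and A09 was not level between accessions. C09 windows 101 to 900 and A09 windows 301 to 800 together gave 9816 ± 364 CPM in R4210, 18510 ± 2750 in R4168 and 14540 ± 985 in R4817. R4210 was lowest of all 6 accessions, next to R5161 at 10440 ± 291. The pair C09 1401 to 1600 and A09 1301 to 1500 was closer to level, with 4072 ± 78.7 CPM in R4210, 3784 ± 84.5 in R4168 and 4032 ± 49.3 in R4817.

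Smaller low stretches, each against both sisters, lay on C01, C02, C04 and A10. On C04 all 20 tested genes from 6141 to 6180, beside the last number 6183, were lower than in both. They summed to 11.78, 10.29 and 10.91 CPM in R4210, to 560.2 to 718 in R4168 and to 358.3 to 440.3 in R4817, with no overlap. The haplotype 1 accessions had 494.8 to 566.4 CPM there. On C01, 34 of 42 tested genes from 4921 to 5000 were lower than in both, with 15.33 ± 2.71 CPM in R4210, 495.6 ± 199 in R4168 and 790.5 ± 67.0 in R4817. R5161 was also low at that place, at 103.5 ± 3.48 CPM. On C02, 30 of 41 tested genes from 5081 to 5160 were lower than in both, with 111.1 ± 10.1 CPM in R4210, 465 ± 28.4 in R4168 and 463 ± 87.9 in R4817. The means of R5044 (288.8 ± 142), R5159 (353.2 ± 48.8) and R5161 (254.4 ± 22.3) lay between R4210 and the sisters there. On A10, 16 of 31 tested genes from 2981 to 3020 (last number 3021) were lower than in both, with 23.55 ± 3.69 CPM in R4210, 89.03 ± 5.11 in R4168 and 270.4 ± 22.5 in R4817. In the whole shifted windows at these places, 25 of 46 tested genes were lower than in both on C04 and 34 of 54 on C01. On C02 they were 27 of 53, and on A10 they were 11 of 76.

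The end of C09, homoeologous to the end of A10, was raised. Of 23 tested genes from 6201 to the last number 6245, 11 were higher than in both sisters, and 1 of 24 was without the third libraries of R4210 and R4817. R4210 had 566.4, 678.7 and 606.9 CPM, R4168 239, 239.6 and 243.4, and R4817 288.6, 399.2 and 356.8. No R4210 library overlapped a sister library, and the haplotype 1 accessions had 216.7 to 235.8 CPM. On A01, gene numbers 3401 to 3600 were also raised, with 27 of 119 tested genes higher than in both sisters (9 without the third libraries of R4210 and R4817), at 2794 ± 271 CPM in R4210, 1928 ± 95.8 in R4168 and 1757 ± 79.7 in R4817, with R5161 at 2561 ± 85.6.

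Genes lower than in both sisters followed each other along these stretches. The longest run of consecutive tested genes, all lower than in both sisters, was 46 genes on C05, 42 on C09, 25 on C04, 18 on C01, 16 on A10 and 11 on C02. Runs of higher genes were shorter, at most 8 genes on A09 and 7 on A05 and A02.

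**Figure D3:**
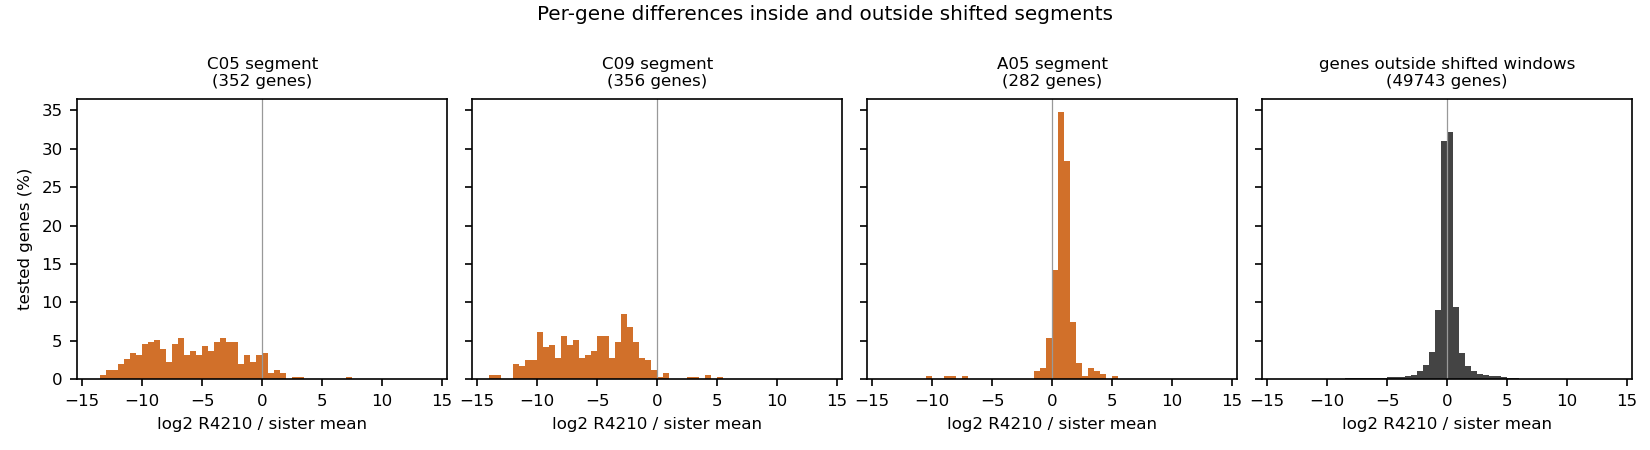
Distribution of the log2 difference between R4210 and the sister mean for tested genes of the low C05 segment (352 genes), the low C09 segment (356 genes), the raised A05 segment (282 genes) and all genes outside shifted windows (49743 genes); the y axis is the percent of tested genes in bins of 0.5. The C05 and C09 genes spread widely below 0, the A05 genes form a narrow peak near 1, and the genes outside lie around 0.

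Several shifted segments came through 1 sister. The first 200 gene numbers of C03, the chromosome of BnaC3.LFY, had 433.5 ± 26.5 CPM in R4210 and 355.9 ± 3.06 in R4168 but 2162 ± 46.6 in R4817. The next 200 had 1788 ± 116 CPM in R4210 and 1879 ± 122 in R4817 but 370.9 ± 30.8 in R4168. On A09, gene numbers 6501 to 6700 had 3767 ± 58.5 CPM in R4210 and 3757 ± 55.7 in R4817 but 1178 ± 97.2 in R4168. In these places R4210 and 1 sister had like levels and the remaining sister stood apart.

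A low region on C01 differed between libraries of R4210 itself as well as of R4817, and is less certain than those above. From 4301 to 4700 R4210 had 2135, 609.3 and 1484 CPM. R4817 had 3728, 1561 and 2603 CPM, overlapping R4210, and R4168 had 3421 to 3562. Only 13 of 194 tested genes were lower than in both sisters, and 1 of 200 was without the third libraries of R4210 and R4817, and the median difference of -1.34 log2 lay between -2.04 and -0.86 when single libraries were left out. A window of its homoeologue A01, 3901 to 4000, varied likewise, at 535.5, 199 and 427.5 CPM in R4210 and 189.5, 783.1 and 515 in R4817. In both accessions the third library lay between the other 2 at both places. In R4210, 11 windows differed by at least 0.5 log2 between replicates 1 and 2, of which 5 were on C01 and 3 on A01. In R4817 there were 32, and some of these lay in stretches described above on C09, A09 and A05. In R4817 the C09 window 201 to 300 had 1058, 311.9 and 668.1 CPM, and 301 to 400 had 987.1, 297.5 and 649.5. R4168 had 10 between replicates 1 and 2, and 23 between replicates 1 and 3. In R4168 the C01 window 4901 to 5000 had 798.1, 444.7 and 450 CPM. The sister levels in such parts are thus less certain than sums over whole stretches show.

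**Figure D4:**
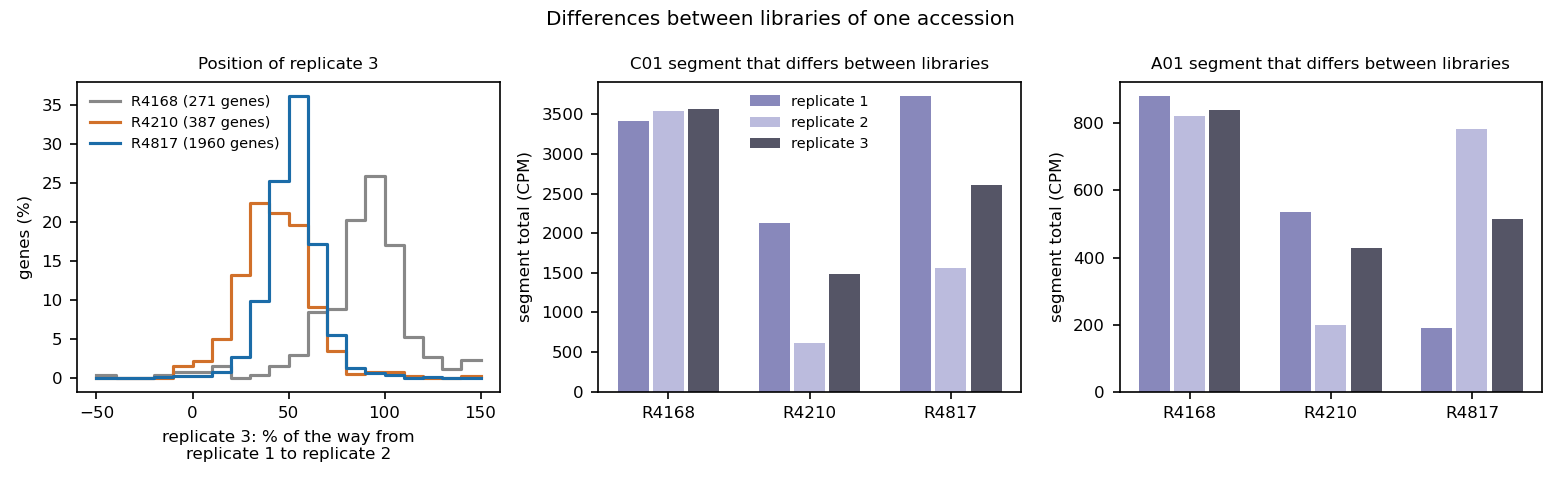
Left, for genes at least 4-fold apart between replicates 1 and 2, the position of replicate 3 in percent of the way from replicate 1 to replicate 2 (y axis, percent of genes). Middle and right, summed level in CPM of the C01 segment 4301 to 4700 and the A01 window 3901 to 4000 in each library. In R4210 and R4817 replicate 3 lies between the others, and R4168 varies little across its 3 libraries in both regions.

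Outside the shifted windows 2749 genes were apart from both sisters, 1020 higher and 1729 lower. They lay on all 19 chromosomes. Not all of them were scattered, since the low stretches above reach beyond the shifted windows in places, such as A10 3001 to 3020. Short blocks outside were low as well, such as C09 6121 to 6140, at medians of -3.86 log2 against R4168 and -3.68 against R4817. Of 911 windows that were not shifted, 795 held at least 1 such gene, with a median of 2 and a maximum of 23. By chromosome, 1.27% to 3.06% of the genes outside were higher and 2.63% to 6.03% lower, and A10 had the highest share of lower genes. Their differences had medians of 1.71 log2 for the higher and 1.85 in size for the lower genes, and 328 of 1020 and 552 of 1729 reached 8-fold.

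More C than A genes were lower in R4210 over all tested genes, but not outside the shifted windows. Over all tested genes, 6.08% of C genes (1677) and 3.55% of A genes (897) were lower than in both sisters, and 3.25% of A and 1.96% of C genes were higher. Outside the shifted windows the lower shares were 3.35% on C and 3.61% on A chromosomes, and the higher shares were 1.98% and 2.13%. Since windows were taken out by this same difference, these shares carry no test. By level, the share of higher genes went from 2.2% under 1 CPM to 4.48% at 100 CPM or more. The share of lower genes was 3.44% under 1 CPM, 5.21% from 1 to 10, 5.15% from 10 to 100 and 3.6% above.

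**Figure D5:**
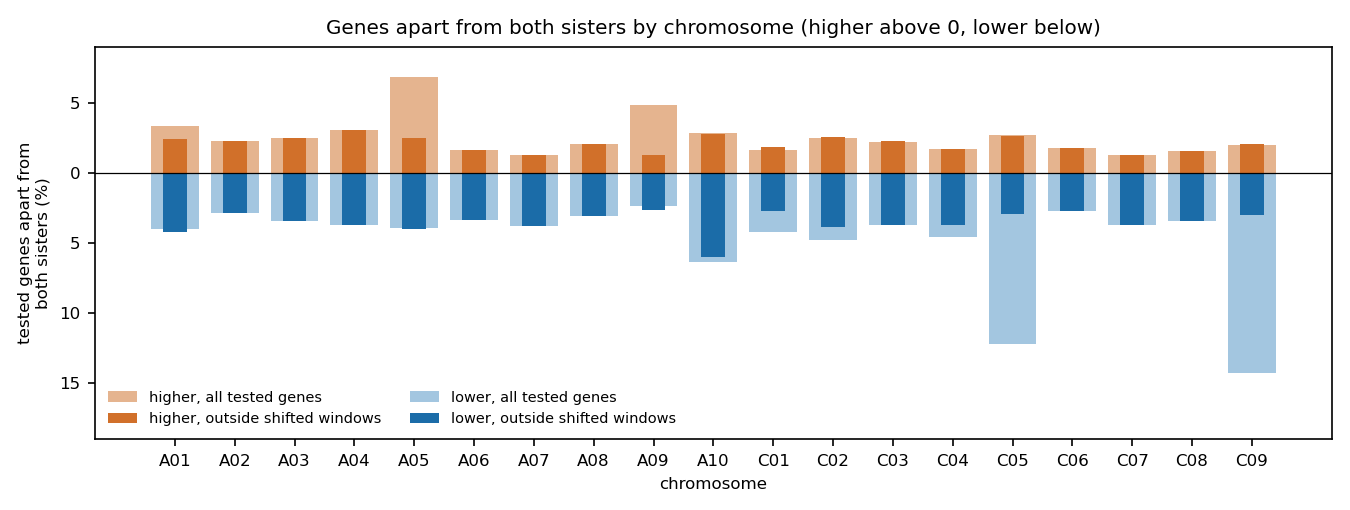
Percent of tested genes apart from both sisters by chromosome, higher above 0 and lower below 0, over all tested genes (pale) and outside shifted windows (dark). C05 (12.2% lower) and C09 (14.3% lower) stand out in pale and reach 2.94% and 2.98% in dark, and A05 (6.84% higher) and A09 (4.86% higher) reach 2.47% and 1.3%.

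BnaA08T0084600ZS (A08, gene number 846) lies outside the shifted windows. It had the highest log2 difference among the 909 higher genes that were apart from both sisters with at least 10 counts in each of the 9 libraries. Its level was 214, 121 and 181 CPM in R4210. It was 10.5, 9.78 and 9.61 CPM in R4168 and 9.87, 3.98 and 8.56 CPM in R4817. Every R4210 library was above every sister library, by a log2 difference of 4.33, about 20.1-fold, with an edgeR quasi-likelihood adjusted p of 1.52e-06. The haplotype 1 accessions were on the sisters' side, at 5.48 ± 1.06 (R5044), 4.73 ± 0.543 (R5159) and 12.7 ± 0.21 CPM (R5161; SD, n = 3).

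Some genes were on in R4210 and off in both sisters, or the converse. A gene is called off in R4210 when it had at most 3 counts over its 3 libraries and at least 1 CPM in each of the 6 sister libraries, and on in R4210 in the converse case. By this count 304 genes were off and 78 were on. The conditions are not alike, since an on gene must be near 0 in 6 libraries and an off gene in 3. By the same rules 356 genes were off and 71 on in R4168, and 174 were off and 264 on in R4817, so the excess of off genes was not shared by R4817. Of the 304, 262 lay on C chromosomes, with 107 on C05 and 87 on C09, and 202 were in windows shifted against both sisters. The 78 were even between subgenomes, 38 on A and 38 on C, and 75 lay outside shifted windows. For comparison, 25284 tested genes lay on A and 27567 on C chromosomes. Windows shifted against both sisters held 4.14% of tested chromosome genes, and 94.1% lay outside all shifted windows. The placement of the 78 was thus close to that of all tested genes. Windows were chosen on the same difference, so the 202 follow in part from that choice. With the third libraries of R4210 and R4817 left out the counts were 338 and 88, and with at least 5 CPM required in the higher group they were 124 and 26. Of the 304 genes, 164 were on (at least 1 CPM in each library) in all 3 haplotype 1 accessions, and R5161 had the most of them off, 59. Of the 78, 25 were off in all 3 haplotype 1 accessions and 5 were on in all 3.

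BnaC01T0204600ZS (C01, gene number 2046) had the highest level among the 78 genes, and it is one of those that the haplotype 1 accessions also express. It had 56, 69.1 and 84.2 CPM in R4210. R4168 had 0 counts and R4817 had 2, 0 and 1 counts, so that the 6 sister libraries held 3 counts in all. R4210 was 3610-fold higher by the ratio of counts per total, with an exact binomial interval of 1240 to 17500 (95%, counting error only), and the edgeR quasi-likelihood adjusted p was 2.45e-07. R5044 had 60.7 ± 4.88, R5159 46.1 ± 21.8 and R5161 51.3 ± 2.95 CPM (SD, n = 3), near the level of R4210.

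Each haplotype 1 accession, taken singly, sided with R4210 in a minority of the genes apart from both sisters. An accession was put on R4210's side when its mean log2 level was past the midpoint between R4210 and the nearer sister. For 49% of the 845 lower genes inside shifted windows no haplotype 1 accession was on R4210's side, and the same held for 57.1% of the 1737 lower genes outside, scaffold genes included. Inside, R5161 was on R4210's side in 385 of the 845, R5044 in 262 and R5159 in 61. Outside, the 3 accessions were alike, with 492, 446 and 478 of 1737. For the higher genes no haplotype 1 accession was on R4210's side in 55.0% of 342 inside and 64.6% of 1022 outside. These genes were chosen because R4210 stood apart from both sisters. That choice favours the sisters' side for any other accession, so these shares carry no test.

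Whole chromosomes also differed in their share of the counts. Chromosomes were taken as a division that uses no measured value, and shares of the chromosome counts were compared between 3 and 6 libraries with two-sided exact permutation tests, adjusted over 19 chromosomes. The smallest p that the 84 splits allow is 0.0119. A09 took 7.44% ± 0.0621 of the counts in R4210, 6.45% ± 0.0197 in R4168 and 6.66% ± 0.0406 in R4817 (SD, n = 3). A05 took 4.44% ± 0.0729, 4.05% ± 0.0848 and 3.86% ± 0.129. Both were above every sister library (exact p = 0.0119, adjusted p = 0.0452). C09 took 5.84% ± 0.0209 in R4210, 6.98% ± 0.228 in R4168 and 6.71% ± 0.176 in R4817. C05 took 5.74% ± 0.0307, 5.95% ± 0.0556 and 6.03% ± 0.025, and C08 took 5.40% ± 0.0639, 5.62% ± 0.0148 and 5.56% ± 0.0317. These 3 were below every sister library (exact p = 0.0119, adjusted p = 0.0452), and the other 14 chromosomes did not pass. All 5 stood at the smallest p possible. The test treats the libraries of both sisters as exchangeable, so its p also depends on the gap between the sisters. A06 did not pass (exact permutation p = 0.0238, adjusted p = 0.0754), at 4.57% ± 0.0149 in R4210, 4.86% ± 0.0372 in R4168 and 4.67% ± 0.0167 in R4817. Not passing is thus not absence of a difference, and the same limit holds for the A chromosome test below. With any of the 9 libraries left out no chromosome passed, the smallest exact p then being 0.0179 or 0.0357, and with the third libraries of R4210 and R4817 out it was 0.0476. In each of these settings the R4210 libraries still did not overlap the sister libraries in those 5.

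A chromosomes together took 47.6%, 47.1% and 47.3% of the chromosome counts in the R4210 libraries. They took 45.9%, 45.7% and 45.7% in R4168 and 45.5%, 46.0% and 45.8% in R4817. The R4210 libraries were above all 6 sister libraries, by 1.58 percentage points in the mean (two-sided exact permutation p = 0.0119, the smallest possible). This total includes A09 and A05, with differences of 0.882 and 0.481 percentage points, so it is not separate from the chromosome tests. The haplotype 1 accessions had 49.1% ± 0.659 (R5044), 47.5% ± 0.251 (R5159) and 48.7% ± 0.0492 (R5161).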

How the data were processed

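Poly(A)-selected RNA-seq libraries of shoot apices were used, 3 for each of R4210, R4168 and R4817, with the 9 haplotype 1 libraries for reference. The table the authors deposited holds unnormalized whole-number counts for each gene model. The submitters' processing notes list HISAT2 2.2.1 and featureCounts without settings. Build, annotation, strandedness and the handling of multi-mapping reads were not given in the sources. Columns were assigned by their names, and no column was left unused (0).

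Counts were tested in R 4.3.3 with edgeR 4.0.16 (TMM, filterByExpr by accession, 1 coefficient per accession, quasi-likelihood test, Benjamini-Hochberg over all tested genes). Genes apart from both sisters passed at 0.05 with 1 sign in the main and both pairwise contrasts. CPM scales deposited counts to a common library total, and sides of haplotype 1 accessions used log2(CPM + 0.1). Replicate positions used genes with at least 100 counts, and a pseudocount of 0.5 CPM. The scan used Python 3.11.15, numpy 2.4.6, pandas 2.3.3 and scipy 1.17.1. DESeq2 1.42.0 and limma 3.58.1 served as alternatives. Named genes are those with the most extreme log2 difference, and the on and off genes with the highest level. Members, rules and lists were chosen with earlier results of these data known.

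No pair of libraries was identical, and chi-square over its degrees of freedom was at least 5.34 within accessions, so no library was taken for a copy of another. This check does not show that the third libraries are independent samples. On simulated counts for this comparison (52181 genes fitted), 4-fold changes were called in 81% and 2-fold in 36% of planted genes, and 71% and 8% were apart from both sisters. Unchanged genes were called in 0.0193%. In the simulation the sisters had equal means, all libraries were independent, and only 100 genes for each fold and 1 block were changed. In the data the sisters stood apart from each other and 20.9% of tested genes were called. The simulated rates are therefore not the power or error rate of the real comparison.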

Additional observations from a re-analysis of the deposited data

How the results depend on the processing

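Most of the counts kept within 1.5 times under the alternatives tried. The 11165 calls against the sister mean stayed within that range in 16 of 19 alternatives, and so did the 3946 genes apart from both sisters. A test against a 2-fold difference (glmTreat) gave 3760 and 1557. Leaving out replicate 3 of R4210 and of R4817 together, an alternative chosen after seeing the data, gave 4725 and 1696, and it gave 7311 calls for R4168, 5137 for R4817 and 1498 genes apart from all 5, or 1275 with the third libraries of the haplotype 1 accessions out as well. Leaving out each library in turn gave 7014 to 13228 calls and 2612 to 4969 genes apart from both sisters, and 1857 to 2264 genes apart from all 5. For R4168 and R4817 these ranges were 8922 to 15151 and 6820 to 11097. DESeq2 gave 13704 and 5125 and limma-voom 11015 and 3620. Shifted windows numbered 134 with windows of 50 gene numbers, 21 with 200, 99 with a median of at least 0.3, and 57 to 63 when single libraries were left out. Medians of the 16 segments shifted against both sisters kept their sign in the 10 settings that left out 1 library or both of those replicates. These segments were chosen on this contrast, which favours a kept sign. With at least 5 CPM in the higher group 124 genes were off and 26 on. The A chromosome difference lay between 1.439 and 1.716 percentage points without single libraries (exact permutation p up to 0.0357). With the 100 highest models left out, 7 chromosomes passed in place of 5. With any 1 library left out, or with both of those replicates out, 0 passed, since the smallest exact p rises with fewer libraries, and the lowest adjusted p ranged from 0.0565 to 0.181. The 4 named genes kept their direction and their call in each of 14 alternatives. They were chosen as extreme in these same libraries, so the choice favoured this.

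Any pairing of libraries by replicate number was weak. Deviations of same-numbered libraries of different accessions had correlations of -0.00766 to 0.0764, and those of differently numbered libraries had -0.087 to 0.0479. With the replicate number as a block, 10477 genes were called, 3754 were apart from both sisters and 2403 from all 5. The depth allowed fewer than 10 counts in many models, so absence of a call at low level is not absence of a difference.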
